A study of Mus musculus with 12 samples.

Results

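The 9 genes described here build, load or switch on MHC class II, the surface protein with which antigen-presenting cells show peptides to helper T cells. They are H2-Aa, H2-Ab1, H2-Eb1, Cd74, H2-DMa, H2-DMb1, H2-Oa, H2-Ob and Ciita. They were chosen by name, with earlier results of these data known. Each gene was read on the probe set with the highest mean over 12 arrays. Of the 9 genes, 8 had a probe set of their own, and all 8 passed the filter on dim values and were tested among 11602 genes. H2-DMb1 was read only on probe sets that the platform annotation also gives to H2-DMb2, so its levels are described and not tested as a gene.

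RNA from whole lungs of wild-type mice was measured on 12 Affymetrix arrays, with 3 arrays in each of 4 groups. Control mice received vehicle and were 8 to 10 weeks old, while mice of all other groups were 8 to 12 weeks old, so age cannot be told apart from treatment in comparisons with control. Radiation mice received a single dose of 25 Gy, with lungs taken after 6 weeks. Simvastatin mice received the drug at 10 mg/kg by intraperitoneal injection 3 times a week, and combined mice received both treatments. Simvastatin lowers cholesterol by blocking HMG-CoA reductase. The study's title concerns vascular leak and inflammation after lung irradiation. No label used here names a strain or says whether the arrays of a group come from different mice. The p-values therefore rest on array-to-array spread, which may be technical.

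An MHC class II molecule is a pair of an alpha and a beta chain: H2-Aa and H2-Ab1 encode the chains of I-A, and H2-Eb1 encodes the beta chain of I-E. In the endoplasmic reticulum the pair binds the invariant chain, encoded by Cd74, which blocks the groove and guides the complex to endosomes. There proteases trim the invariant chain to a short peptide, the H2-DM dimer exchanges that peptide for antigen, and the H2-O dimer restrains H2-DM. Ciita encodes the coactivator that switches these genes on by docking on factors bound at their promoters. In lung, B cells, dendritic cells, macrophages and alveolar type 2 cells carry class II molecules.

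In these promoters the RFX complex binds a sequence named the X box and NF-Y binds the Y box downstream, and CIITA joins them. The RefSeq promoter table, on build GRCm38.p6, held windows of 250 bases before to 50 bases after the gene start for 6 of the members. The promoters of H2-Ab1, Ciita and Cd74 were not searched here. The letters CNNGNAAC, for the core of the X box, and GATTGG, for the Y box, were written with these sequences in view and searched on both strands; the 2 motifs share no bases in the stretches shown. In 5 of the 6 members CNNGNAAC was followed by GATTGG with 20 to 45 bases from start to start. The stretches are shown as matches to the letters of these 2 boxes. Both motifs are in capitals and all sequences 5′ to 3′ in the direction of the gene.
H2-Aa: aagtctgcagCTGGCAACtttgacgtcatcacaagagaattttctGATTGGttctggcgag
H2-Eb1: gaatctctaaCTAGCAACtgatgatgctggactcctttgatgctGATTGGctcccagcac
H2-DMb1: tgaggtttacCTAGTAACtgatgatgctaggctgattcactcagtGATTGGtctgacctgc
H2-Oa: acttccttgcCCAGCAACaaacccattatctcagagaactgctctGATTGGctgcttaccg
H2-Ob: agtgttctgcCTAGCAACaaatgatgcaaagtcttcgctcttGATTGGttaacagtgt

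These stretches lie at chr17:34287857-34287917 on the minus strand for H2-Aa, and on the plus strand at chr17:34305763-34305822 for H2-Eb1, chr17:34153084-34153144 for H2-DMb1, chr17:34092290-34092350 for H2-Oa and chr17:34238805-34238862 for H2-Ob. The first motif began 84 bases before the gene start in H2-Aa, 94 in H2-Eb1, 97 in H2-DMb1, 79 in H2-Oa and 90 in H2-Ob. The distance from the first motif to the second was 35 bases in H2-Aa, H2-DMb1 and H2-Oa, 34 in H2-Eb1 and 32 in H2-Ob. The ordered pair stood in 113 of 32851 promoter windows of the same length, or 0.344%. CNNGNAAC alone stood in 39.1% of them and GATTGG alone in 16.1%. Neither window listed for H2-DMa held the pair. A match of letters is a description and no measurement of binding. Of the members, 7 are neighbours on chromosome 17, while Ciita lies on chromosome 16 and Cd74 on chromosome 18.

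The arrays did not all behave as labelled, and 3 of them were near copies. Cdkn1a, the p53 target that marks irradiated tissue, was 10.2 and 10.7 on control 1 and control 2 but 13.0 on the array labelled control 3. It was 13.1 to 13.4 on the radiation arrays and 13.2 on combined 1 and combined 2, but 11.2 on the array labelled combined 3. It was 11.1 on simvastatin 1 and simvastatin 3 but 13.4 on the array labelled simvastatin 2. Simvastatin 1, simvastatin 3 and combined 3 differed from each other by an SD of 0.111 to 0.118 on the log2 scale over 10370 bright probe sets, against at least 0.337 in the other 63 pairs of arrays. Simvastatin 1 and simvastatin 3 were therefore averaged and counted as 1 sample, which gave 11 samples. Combined 3 has another label and was kept. Over all probe sets the first principal component placed control 3, radiation 1 and radiation 2 at 105, 110 and 141 and all other arrays below 0. Every direction below rests on the labels as given.

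The classical chains were bright on all arrays and lay lowest on radiation 1. H2-Aa read 13.86, 14.01 and 13.46 log2 units on the control arrays, 13.37, 13.74 and 13.93 on the radiation arrays, 13.73, 13.86 and 13.86 on the combined arrays and 13.83, 13.81 and 13.85 on the simvastatin arrays. All 4 groups overlapped, and the 2 lowest values were radiation 1 and control 3. H2-Ab1 read 13.30, 13.29 and 12.95 in control, 12.43, 13.03 and 13.25 in radiation, 13.15, 13.14 and 13.09 in combined and 13.17, 13.08 and 13.15 in simvastatin. Radiation 1 again stood lowest, and its value minus the mean of the other radiation arrays was -0.71. H2-Eb1 read 12.85, 12.90 and 12.30 in control, 12.22, 12.50 and 12.98 in radiation, 12.71, 12.98 and 12.75 in combined and 12.82, 12.76 and 12.78 in simvastatin. Its values spread widest within the control and radiation groups, and the groups overlapped.

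Cd74, the invariant chain gene, followed the classical chains. Its values were 13.85, 13.98 and 13.51 in control, 13.29, 13.79 and 13.86 in radiation, 13.84, 13.97 and 13.70 in combined and 13.72, 13.86 and 13.66 in simvastatin. Over all 12 arrays it varied by 0.70, and by 0.33 once radiation 1 and control 3 were set aside.

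The H2-DM genes, whose dimer loads peptide, showed no separation of the groups. H2-DMa read 9.87, 10.28 and 9.77 in control, 9.38, 10.04 and 10.22 in radiation, 9.88, 10.12 and 9.74 in combined and 9.83, 10.13 and 9.63 in simvastatin. The lowest value was radiation 1 and the highest control 2, with the other 2 groups between them. The brighter probe set shared by H2-DMb1 and H2-DMb2 read 9.75, 10.09 and 9.23 in control, 9.30, 10.06 and 9.92 in radiation, 9.54, 10.11 and 9.61 in combined and 9.68, 10.30 and 9.66 in simvastatin. It was lowest on control 3 and radiation 1, so its pattern was near that of H2-Aa. The other shared probe set was lowest on control 1, at 8.54, with 8.83 on radiation 1 and 9.10 to 9.35 elsewhere. The 2 shared probe sets therefore disagreed on control 1 and control 3, and their Pearson correlation over 11 samples was 0.42.

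The H2-O genes, whose dimer restrains H2-DM and is known from B cells and thymus, varied most. H2-Oa read 7.95, 6.18 and 5.97 in control, 4.99, 6.03 and 5.98 in radiation, 5.96, 6.63 and 5.98 in combined and 6.11, 5.74 and 5.98 in simvastatin. A single control array and a single radiation array held its extremes, and the other 10 arrays lay between 5.74 and 6.63. H2-Ob, which encodes the partner chain, read 9.17, 9.86 and 8.11 in control, 7.48, 8.41 and 8.79 in radiation, 8.57, 9.97 and 9.98 in combined and 10.03, 9.49 and 9.96 in simvastatin. The radiation arrays were on the low side and the simvastatin arrays on the high side, but control 3 and combined 1 lay among the radiation values. A second probe set for H2-Ob, shared with Gm20506, was highest on combined 2 at 7.20 and lowest on control 3 at 5.06.

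Ciita, the switch of the pathway, was dim and nearly flat with 1 exception. It read 5.23, 5.32 and 5.32 in control, 4.29, 5.24 and 5.40 in radiation, 5.31, 5.23 and 5.41 in combined and 5.41, 5.17 and 5.43 in simvastatin. Radiation 1 minus the mean of the other radiation arrays was -1.03, and the remaining 11 arrays lay between 5.17 and 5.43. A second probe set of Ciita, which did not pass the filter on dim values, was lowest on radiation 1 at 2.81 and next on control 3 at 2.93.

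**Figure D1:**
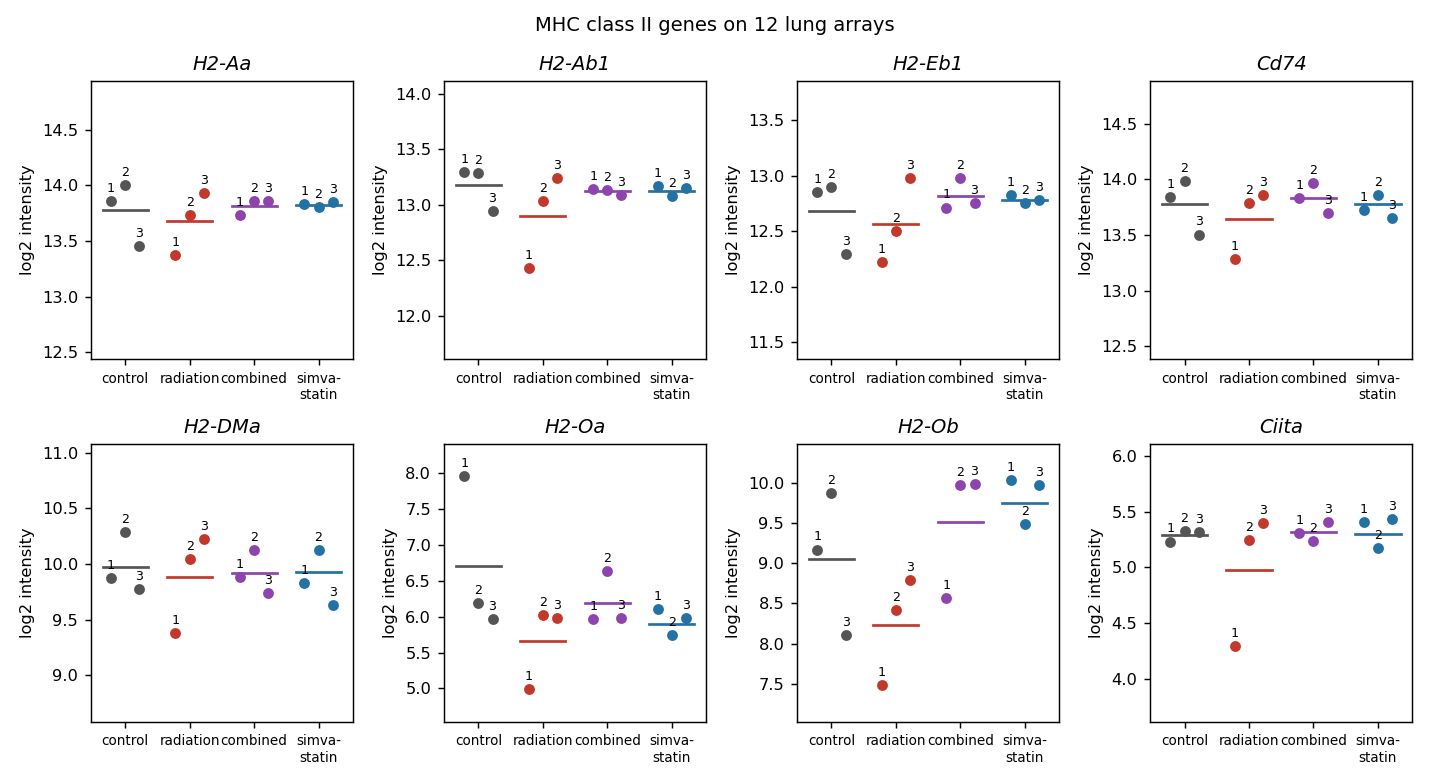
Log2 intensity of the 8 tested genes (vertical axes, each with its own range) on 12 arrays in 4 groups; points are arrays with their replicate numbers and bars are group means, with simvastatin 1 and 3 averaged first. Radiation 1 held the lowest value in all 8 panels, and H2-Oa on control 1, at 7.95, stood above every other array.

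The first comparison, radiation minus control, is that of lungs 6 weeks after 25 Gy with lungs of vehicle-treated mice. By limma 0 of the 8 members passed at an adjusted p under 0.05, and 0% of all genes passed. At an unadjusted p under 0.05 it was 0 of 8 members against 5.17% of all genes. All 8 members had values below 0, with a median of -0.20 beside a median of 0.08 over all 11602 genes, of which 60.4% lay above 0. No member separated the 2 groups completely, while 2.03% of all genes were lower and 4.86% higher without overlap. The sign depended on the scaling: with each array centred on its median, the members' median was 0.07 beside 0.36 over all genes. The members' median minus that of all genes was -0.29 under both scalings. With quantile normalization the members' median was -0.14 beside 0.11 over all genes. The lowest adjusted p of the members in limma, 0.751, was also the lowest of all genes.

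The largest radiation differences were those of the H2-O genes. H2-Oa had a mean of 6.70 ± 1.09 (SD, n = 3) on control arrays and 5.66 ± 0.59 (n = 3) on radiation arrays. The difference was -1.04 ± 0.53 (SE), with a 95% interval from -2.22 to 0.14. H2-Ob differed by -0.82 ± 0.54, with an interval from -2.03 to 0.39, and Ciita by -0.32 ± 0.33, from -1.06 to 0.43. These intervals include 0 and also differences of more than 1 log2 unit, so the arrays left the size of any change wide. The brighter genes were held more tightly: H2-Ab1 differed by -0.27 ± 0.20, Cd74 by -0.13 ± 0.18, H2-Eb1 by -0.11 ± 0.22, H2-DMa by -0.09 ± 0.25 and H2-Aa by -0.09 ± 0.17.

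Single arrays carried these values. Without control 1 the H2-Oa difference was -0.41, and without radiation 1 it was -0.70. Without radiation 1 the Ciita difference was 0.03, that of H2-Ob was -0.45, the median of the 8 members was 0.04 and 5 of the 8 were above 0. Without control 2, 2 of the 8 were above 0. H2-Ob was at -0.41 without control 2 and at -1.29 without the array labelled control 3. The 2 arrays lowest in class II, control 3 and radiation 1, were also the only arrays with almost no Xist, the X-silencing RNA of female cells, at 2.45 and 2.50 against 12.3 to 14.5 elsewhere. The part of sex, age or tissue sampling in the class II differences was not tested. In whole lung, fewer class II cells and less class II RNA per cell cannot be told apart.

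Combined minus radiation compares irradiated lungs with and without simvastatin. By limma 0 of 8 members passed at an adjusted p under 0.05, as did 0% of all genes, and 1 of 8 had an unadjusted p under 0.05 against 4.46% of all genes. All 8 members were above 0, with a median of 0.23 beside -0.09 over all genes, of which 37.4% were above 0. This comparison shares its radiation arrays with the one above, so the opposite signs are not separate observations. No member was higher or lower without overlap, against 3.7% and 13.5% of all genes.

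H2-Ob showed the largest of these differences, 9.51 ± 0.81 (SD, n = 3) in combined and 8.23 ± 0.67 in radiation. That is 1.28 ± 0.54 (SE), with a 95% interval from 0.07 to 2.49, a limma p of 0.0399 and an adjusted p of 0.835. Combined 1, at 8.57, lay below radiation 3, at 8.79. Without combined 3, the near copy of simvastatin 1, the difference was 1.04, without radiation 1 it was 0.91 and without combined 1 it was 1.75. The shared probe set of H2-Ob and Gm20506 differed by 0.51 ± 0.52.

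The other members differed less. H2-Oa differed by 0.52 ± 0.53, Ciita by 0.34 ± 0.33, H2-Eb1 by 0.25 ± 0.22, H2-Ab1 by 0.22 ± 0.20, Cd74 by 0.19 ± 0.18, H2-Aa by 0.14 ± 0.17 and H2-DMa by 0.03 ± 0.25, and all of their 95% intervals include 0. Without radiation 1 only 4 of the 8 members were above 0, with a median of 0.0023, H2-Oa at 0.19, Ciita at -0.0050 and H2-DMa at -0.22. Without combined 2, 7 of the 8 were above 0. With each array centred on its median it was -0.13, beside a median of -0.45 over all genes, so the members stayed above the median of all genes under both scalings.

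**Figure D2:**
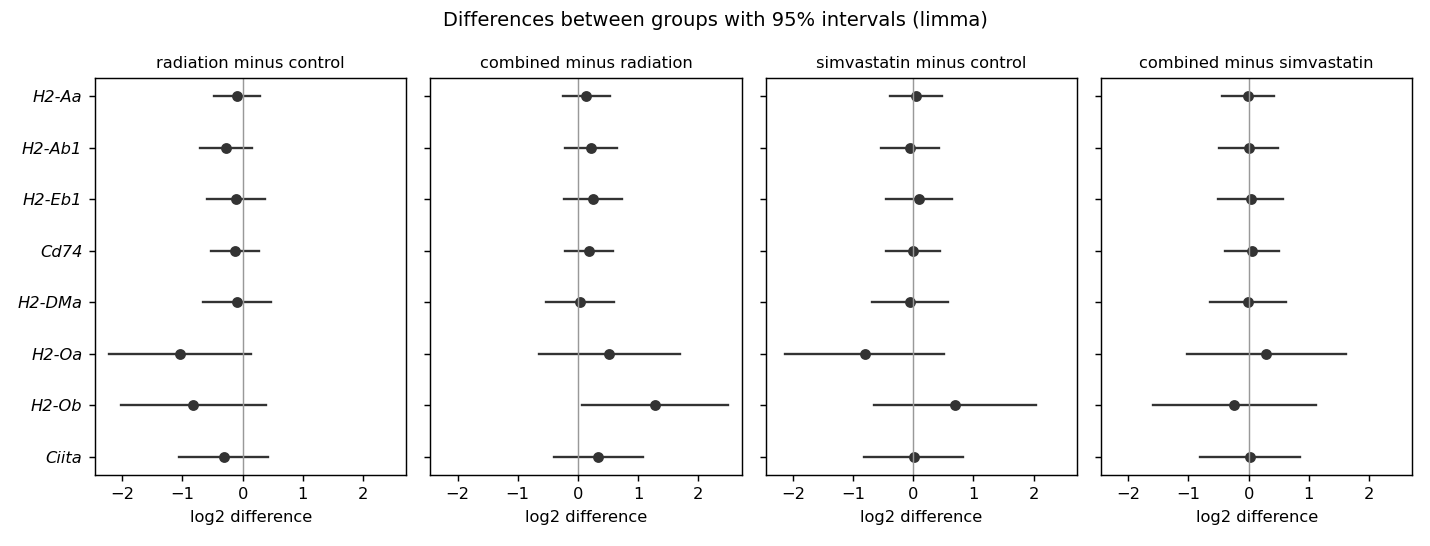
Log2 differences (horizontal axes) of the 8 tested genes in 4 comparisons; points are limma estimates and lines their 95% intervals. H2-Ob in combined minus radiation, from 0.07 to 2.49, is the only interval shown that leaves out 0, and its adjusted p was 0.835.

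Simvastatin without radiation was compared with control. By limma 0 of 8 members passed at an adjusted p under 0.05 (0% of all genes), and 0 had an unadjusted p under 0.05 (1.84% of all genes). Of the members, 4 were above 0 and 4 below, with a median of 0.0013 beside -0.0023 over all genes. No member was higher or lower without overlap, against 3.36% and 7.96% of all genes. The H2-O genes pointed in opposite ways: H2-Oa differed by -0.81 ± 0.59 and H2-Ob by 0.70 ± 0.60. Without control 1 H2-Oa was at -0.18, and without control 3 H2-Ob was at 0.23. H2-Aa was 13.83 ± 0.02 (SD, n = 2) with simvastatin and 13.77 ± 0.28 (n = 3) in controls, a difference of 0.05 ± 0.19 with a 95% interval from -0.38 to 0.48. Cd74 differed by -0.0023 ± 0.20, from -0.45 to 0.44.

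Combined minus simvastatin gives the radiation comparison in treated mice. By limma 0 of 8 members passed at an adjusted p under 0.05 (0% of all genes), and 0 had an unadjusted p under 0.05 (1.32% of all genes). The members' median was 0.0099 beside -0.0046 over all genes. No member was higher or lower without overlap, against 7.76% and 6.76% of all genes. H2-Oa differed by 0.30 ± 0.59, H2-Ob by -0.23 ± 0.60 and Ciita by 0.02 ± 0.37. Without combined 1 H2-Ob was at 0.23, and without combined 2 H2-Oa was at 0.08. H2-Aa differed by -0.0084 ± 0.19 and H2-Ab1 by 0.00042 ± 0.22, with 95% intervals from -0.44 to 0.42 and from -0.49 to 0.49. Combined 3 stands on one side of this comparison and its near copies simvastatin 1 and simvastatin 3 on the other.

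The interaction asked whether simvastatin altered the radiation difference. By limma 0 of 8 members passed at an adjusted p under 0.05 (0% of all genes), with 0 at an unadjusted p under 0.05 (3.25% of all genes). All 8 members had values above 0, with a median of 0.23 beside -0.09 over all genes. Without radiation 1 this held for 4 of 8, with a median of 0.00097, without control 2 for 6 of 8 and without combined 2 for 7 of 8. With each array centred on its median, the members' median was -0.13 beside -0.45 over all genes. H2-Oa had the largest value, 1.33 ± 0.79, with an interval from -0.44 to 3.10 and an adjusted p of 0.882 in limma. Without control 1 it was 0.71. H2-Ob was at 0.58 ± 0.81, but at 0.18 without control 2, 0.21 without radiation 1 and 1.05 without either control 3 or combined 1. H2-Ab1 was at 0.27 ± 0.29, and at 0.04 without radiation 1.

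The levels of the 8 genes correlated positively across arrays, with radiation 1 lowest for all of them. Over 11 samples Pearson correlations of the 28 gene pairs had a median of 0.69 and ran from 0.31 for H2-DMa with H2-Oa to 0.94 for H2-Aa with H2-Eb1. Against the mean of the other 7 members, H2-Ab1 reached 0.93, H2-Aa 0.91, H2-Eb1 0.89, Cd74 0.87, Ciita 0.73, H2-Ob 0.70, H2-DMa 0.64 and H2-Oa 0.52. The values of one sample share its RNA and its array scale, so these correlations describe the arrays. The mean of the members also moved with array-wide measures. Its correlation was 0.72 with the median of all probe sets but -0.68 with the median of the tested genes. It was -0.34 with the upper quartile of all probe sets and -0.77 with the first principal component. The part of array scale was not tested. On the probe sets used, radiation 1 was the lowest array for all 8 members, and for 5 of them the next lowest was control 3. No correlation between the members without radiation 1 is given here. Ciita, for example, was 4.29 on that array and 5.17 to 5.43 on the other arrays.

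**Figure D3:**
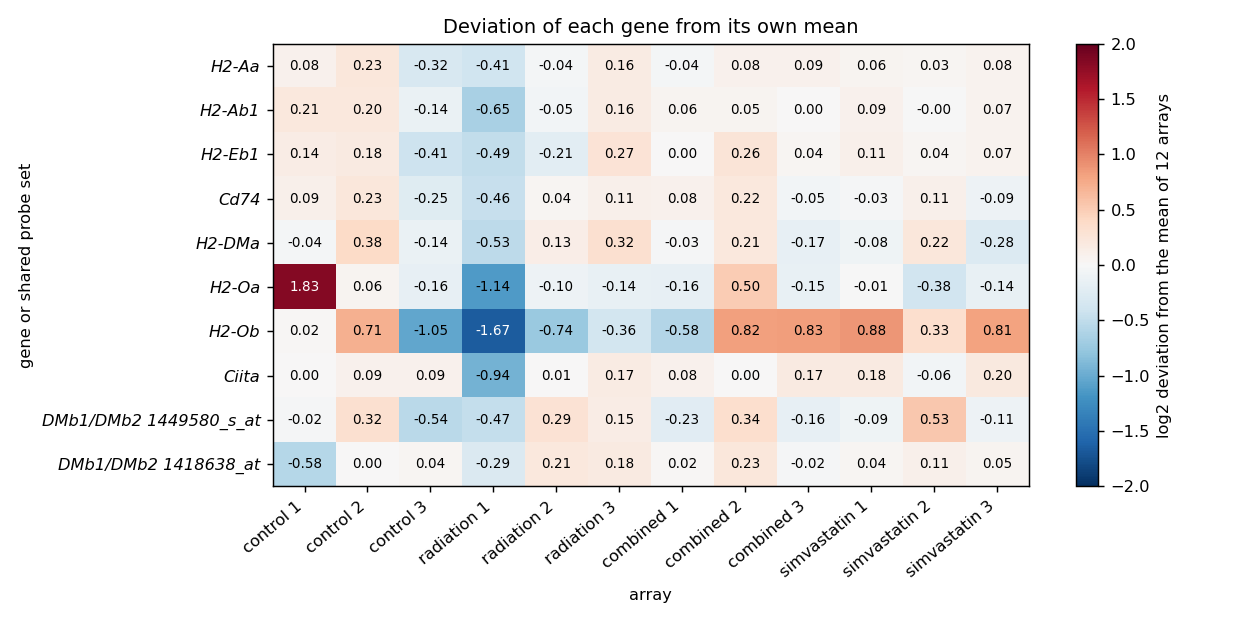
Log2 deviation of each gene from its own mean over 12 arrays (colour and printed value), with genes and the 2 probe sets shared by H2-DMb1 and H2-DMb2 in rows and arrays in columns. The radiation 1 column lies below 0 in every row, and H2-Oa on control 1 is the highest value, at 1.83.

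The mean deviation of the 8 members gave each array a class II level. It was 0.29, 0.26 and -0.30 on the control arrays, -0.79, -0.12 and 0.08 on the radiation arrays, -0.07, 0.27 and 0.10 on the combined arrays and 0.15, 0.04 and 0.09 on the simvastatin arrays. Radiation 1 lay farthest from 0, while control 3 at -0.30 and control 1 at 0.29 were about equally far from it. Probe sets of one gene did not always give the same spread. Control 3 minus the mean of the other controls was -0.35 on the H2-Ab1 probe set used, the brightest one, but -1.13 and -1.10 on the other 2 probe sets of this gene. For H2-Aa it was -0.47 on the probe set used and -1.05, -0.22 and -0.12 on the other 3. Read on the dimmer probe sets of H2-Ab1, control 3 and radiation 1 remained its 2 lowest arrays, but control 3 was the lower. It read 11.50 and 10.09, against 11.57 and 10.13 on radiation 1. The H2-Aa probe set with -1.05 was also lowest on control 3, at 11.14, and the other H2-Aa probe sets were lowest on radiation 1.

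B cell markers tracked the class II level. Of 12 listed markers 10 were measured. Their mean deviation was 0.22, 0.39 and -0.55 in control, -1.30, -0.47 and -0.41 in radiation, -0.07, 1.13 and 0.44 in combined and 0.55, -0.35 and 0.41 in simvastatin. Over 11 samples its Pearson correlation with the class II level was 0.85, and 0.73 without combined 2 and radiation 1, the samples farthest out. Ms4a1, which encodes CD20, ran from 8.70 on control 3 and 8.79 on radiation 1 to 11.02 on combined 2. In radiation minus control 0 of 10 B cell markers were above 0, with a median of -0.74, and in combined minus radiation 10 of 10 were, with a median of 0.98. None passed an adjusted p under 0.05 in limma, and the part of B cell number in the class II values was not tested.

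Markers of the other class II cells moved otherwise. Dendritic cell markers, 9 of 12 measured, ranged from -0.24 to -0.11 in control, -0.36 to 0.38 in radiation, -0.14 to 0.26 in combined and 0.01 to 0.14 in simvastatin. Their correlation with the class II level was 0.57, and 0.26 without radiation 1. Xcr1 and Clec9a, which mark the cross-presenting type, did not pass the filter on dim values. Macrophage markers, 11 of 12 measured, correlated at -0.36 and alveolar type 2 markers, 11 of 12, at -0.37. Sftpc, the surfactant gene that defines type 2 cells, stayed between 15.6 and 15.8 on all arrays, but the type 2 list as a whole was not even. Its mean deviation was -0.79 on control 1 and -0.30 to 0.34 elsewhere. Sftpb, another surfactant gene, was 12.16 on control 1 and 12.91 to 13.73 on the other arrays.

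Markers of tissues other than lung differed between arrays. The thymocyte list, 4 of 10 measured, stood at 4.53 on control 1 and 1.57 on combined 1, and from -1.15 to 0.20 elsewhere. Cd8b1, a thymocyte and cytotoxic T cell gene, was 12.7 on control 1, the array on which H2-Oa was 7.95. On combined 1 Cd8b1 was 8.90 and H2-Oa 5.96. Rag1, Rag2, Dntt and Ptcra, which define thymocytes, were not kept by the filter on dim values, which asks for 3 arrays and so can drop a gene that is bright on fewer. Thymic epithelium markers, 4 of 8 measured and without Foxn1 or Aire, were 3.11 on control 1 and 1.80 on combined 1. Those measured include Krt5, which is also on the squamous epithelium list. The part of thymus tissue in the H2-Oa value was not tested. Skeletal muscle and squamous epithelium markers differed between arrays by far more than class II, and their correlations with the class II level were -0.16 and 0.12. Without radiation 1 these were 0.08 and 0.54.

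**Figure D4:**
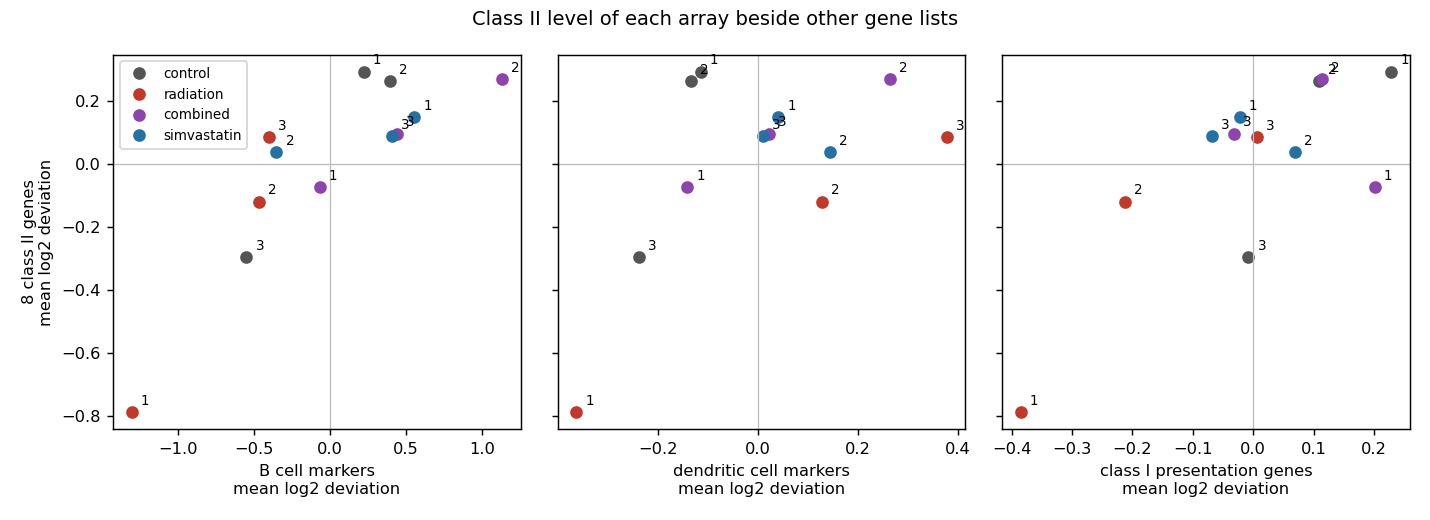
Mean log2 deviation of the 8 class II genes (vertical axis) against that of B cell markers, dendritic cell markers and class I presentation genes (horizontal axes); each point is an array, coloured by group and numbered by replicate. Radiation 1 lies lowest in all panels, at -0.79, beside -1.30 for B cell markers and -0.38 for class I genes.

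Among genes that are no members, the 5 whose levels most resembled the mean of the 8 members over 11 samples were Btla, Egr3, Ccr6, Ighv14-2 and Col27a1. Btla, an inhibitory receptor of B and T cells, reached a Pearson correlation of 0.95, with 8.30 on radiation 1, 8.88 on control 3 and 10.1 on combined 2. Egr3, an early transcription factor gene, reached 0.90, Ccr6, a chemokine receptor of B cells and dendritic cells, 0.89, the antibody segment Ighv14-2 0.89 and the collagen gene Col27a1 0.88. They were picked as the extremes of 11602 genes, so high values follow from the choice.

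Genes of the wider pathway came from 6 lists, and in limma 0 of their members passed at an adjusted p under 0.05 in any comparison. Of the class II family outside the members, only H2-DMb2 was measured with a probe set of its own. It read 9.85, 9.41 and 9.36 in control, 7.73, 9.03 and 9.13 in radiation, 9.14, 9.77 and 9.79 in combined and 9.75, 8.92 and 9.90 in simvastatin. All radiation arrays lay below all control arrays, as for 2.03% of all genes. They also lay below all combined arrays, as for 3.7% of all genes, but radiation 3, at 9.132, and combined 1, at 9.136, were nearly equal. Its differences were -0.91 ± 0.40 for radiation minus control and 0.93 ± 0.40 for combined minus radiation, with adjusted p of 0.751 and 0.835 in limma. These comparisons share the radiation arrays.

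The promoter factors and upstream signals, 18 of 22 measured, had a correlation with the class II level of 0.03, and of -0.04 without radiation 1. In radiation minus control 6 of 18 were above 0, with a median of -0.21. Rfxank, a subunit of the RFX complex, differed by -0.76 ± 0.32, with 7.17 on radiation 1, inside the control values, and 6.28 and 6.19 on radiation 2 and radiation 3, under all of them. Rfx5, the DNA-binding subunit, was 8.19 on radiation 1 but also 8.24 and 8.21 on combined 1 and combined 2, where the class II level was -0.07 and 0.27. Irf4, a factor of B and plasma cells, had the largest interaction of the list, 2.19 ± 0.91, and the interferon receptor gene Ifngr1 was at -0.57 ± 0.27. Irf4 was dim: it read 6.10 on control 1, 5.56 on combined 1 and 6.20 on combined 2. On all other arrays it was 3.46 to 4.55, under the filter level of 4.85.

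Genes of antigen processing in lysosomes, all 12 measured, had a correlation with the class II level of -0.34, but of -0.07 without radiation 1. In radiation minus control 7 of 12 were above 0. Ctsh, a cathepsin, read 12.39, 13.60 and 13.37 in control and 14.20, 14.03 and 13.48 in radiation, a difference of 0.78 ± 0.31 with radiation 1 highest. Ctss, the protease that trims the invariant chain, was 14.24 on radiation 1, where Cd74 was lowest. It was higher on simvastatin 2, combined 1 and radiation 2, at 14.65, 14.50 and 14.31, where Cd74 was 13.86, 13.84 and 13.79. Ctss was 13.3 to 13.4 on the near-identical arrays combined 3, simvastatin 1 and simvastatin 3, where Cd74 was 13.66 to 13.72. Mr1, which presents microbial metabolites, differed by -0.73 ± 0.38 and the protease gene Ctsb by 0.30 ± 0.18 in combined minus radiation.

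Trafficking genes, 11 of 12 measured, included Cd83, which stabilises class II on the surface, at 1.23 ± 0.79 for the interaction. Cd83 is also on the thymic epithelium list, and it was 10.69 on control 1 and 8.05 to 9.64 on the other arrays. Ap2b1, an endocytic adaptor, was at -0.68 ± 0.39 in simvastatin minus control, and the tetraspanin gene Cd9 at -0.69 ± 0.42 for the interaction. Of costimulation genes 7 of 12 were measured. Cd274, which encodes PD-L1, differed by -0.98 ± 0.43 in simvastatin minus control, Cd40, a receptor for T cell help, by -0.43 ± 0.19 in combined minus simvastatin, and Icam1, an adhesion gene, by 0.54 ± 0.32 in radiation minus control.

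Class I presentation genes, which show peptides to cytotoxic T cells, were 17 of 20 measured. Their correlation with the class II level was 0.78, but 0.47 without radiation 1. In radiation minus control 5 of 17 were above 0 (60.4% of all genes), with a median of -0.21, and 3 had an unadjusted p under 0.05 (5.17% of all genes). In combined minus radiation 14 of 17 were above 0 (37.4% of all genes), with a median of 0.14, and 4 had an unadjusted p under 0.05 (4.46% of all genes). Both comparisons use the same radiation arrays. Psmb9, a subunit of the immunoproteasome, read 10.73, 10.42 and 10.32 in control and 9.31, 9.65 and 10.15 in radiation. The difference was -0.78 ± 0.23 (limma adjusted p = 0.751), and radiation was lower without overlap, as for 2.03% of all genes. Nlrc5, the class I counterpart of CIITA, differed by 1.38 ± 0.51 and Tap1, a peptide transporter gene, by 0.77 ± 0.31 in combined minus radiation. Whether class I and class II genes differ in their response was not tested.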

How the data were processed

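Members and gene lists were chosen with earlier results of these data known. The deposited values are log2 intensities, and the submitters' processing notes name MAS5 and GCRMA; for the order of those steps, versions and a genome build, nothing is given in the sources used here. Of 45101 probe sets, 64 Affymetrix controls were left out, and 34945 had 1 gene symbol in the platform annotation, updated through Entrez identifiers for 34741. Probe sets above log2 4.85 on at least 3 of 12 arrays were kept, and each gene was represented by its brightest one on average. Group means of 11 samples were fitted by limma 3.58.1 (R 4.3.3), with 7 residual degrees of freedom, a trend on the mean, two-sided p-values and Benjamini-Hochberg adjustment per comparison. The script was tested on simulated data. The genes named are the members, up to 3 genes of lowest p per pathway list and the 5 most alike in pattern; any other gene was named after its values were seen. The number of arrays limits the precision. Levels of different genes are not compared. Correlations of deviations between same-numbered arrays of different groups ran from -0.26 to 0.41, with 8 of 18 above 0.1. Values for differently numbered arrays are not given here, so these do not decide whether the numbers pair the arrays. The main fit left the arrays unpaired, and a replicate block was fitted as an alternative. Alternatives covered array scaling, filter, probe set choice, replicates, array weights and left-out arrays.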

Additional observations from a re-analysis of the deposited data

Results flagged for a closer look

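For H2-Oa all radiation arrays lay below the control mean while all combined arrays lay above the simvastatin mean. The differences were -1.04 and 0.30, and the limma interaction of 1.33 had an adjusted p of 0.882. Without control 1 the interaction was 0.71. That array, at 7.95, raised the control mean to 6.70, and control 2 and control 3, at 6.18 and 5.97, also lay below that mean. In the other direction of the design, all combined arrays lay above the radiation mean and both simvastatin samples below the control mean, at 0.52 and -0.81, with the same interaction of 1.33. H2-Ab1 showed the second pattern as well, at 0.22 with radiation and -0.05 without, and an interaction of 0.27 (limma adjusted p = 0.882), which was 0.04 without radiation 1. Neither gene passed the test of that difference.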

How the results depend on the processing

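Of 1000 member values recomputed under 25 other settings, 1 was called: H2-Ob in radiation minus control with array weights, at -1.78 (limma adjusted p = 0.0454). Outside array weights the lowest adjusted p was 0.198. The sign changed without a call in 108, of which 21 came from centring arrays on their medians and 44 from leaving out 1 array. The count of all genes called, 0 in every comparison, became 1241 for radiation minus control and 1172 for combined minus radiation with array weights, and 9 for radiation minus control without control 3, combined 3 and simvastatin 2. Leaving out 1 array gave 0 to 1 genes in radiation minus control and in the interaction. The members' median was -0.13 with median centring in combined minus radiation and in the interaction, -0.55 for radiation minus control and 0.57 for the interaction with array weights, and -0.10 for combined minus radiation without control 3, radiation 1 and radiation 2. Leaving out 1 array gave medians from -0.38 to 0.04 for radiation minus control, 0.0023 to 0.42 for combined minus radiation and 0.00097 to 0.40 for the interaction. With the replicate block, fitted on 12 arrays, 0 members were called and the radiation minus control median was -0.20. The alternatives of centring on the tested genes and of a fit over all 23457 kept probe sets, were chosen after seeing the data. The cause of these shifts was not tested.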
